A study of Homo sapiens with 10 samples.

Results

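The integrated stress response genes and ATF5 were followed across 10 RNA-seq libraries of H1, an established human embryonic stem cell line. Of 39 gene symbols put together for this response, 38 were rows of the deposited table of single libraries, which holds 14785 rows in all. NUPR1 was not analysed here. The genes were chosen by their known role in the response and with results of these libraries in view, namely the high ATF5 values after MAFK knockdown and the difference between the control libraries, so those results are given below as descriptions. The 38 genes were sorted by role into 6 transcription factors, 8 feedback, stress and secreted genes, 11 enzymes of amino acid and one-carbon metabolism, 10 genes of tRNA charging and export, and 3 genes of protein folding in the endoplasmic reticulum (ER).

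Every group was H1 cells of unaltered genotype, grown in mTeSR1 medium on Matrigel, that received packaged short hairpin RNA (shRNA) virus followed by puromycin selection. The 5 groups differed in the shRNA: shSMARCA4 targets the ATPase of a chromatin remodelling complex, shMAFK a small MAF transcription factor, shE2F6 a repressive E2F factor and shKDM1A a histone demethylase. The fifth, shLUC, targets luciferase, which human cells lack, and was the control. Each group had 2 libraries, described by the submitters as biological duplicates, and nothing says whether they were separate infections, so p-values measure only the spread between these libraries. No group was an uninfected or unselected culture, so a response that all infected cells share cannot be seen.

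The integrated stress response is a shared answer of cells to amino acid shortage, misfolded protein in the ER, viral RNA and haem or mitochondrial defects. Kinases that sense these conditions phosphorylate the translation initiation factor eIF2, which lowers protein synthesis in general while the mRNA of the transcription factor ATF4 is translated more. ATF4 then raises transcription of genes for amino acid synthesis and import, for charging tRNAs with amino acids, and of factors that prolong or end the response, such as DDIT3 (CHOP), TRIB3 and PPP1R15A. ATF5 is a factor of the same family whose translation is controlled in a similar way and which is known for a role in the mitochondrial stress response. HSPA5, HERPUD1 and XBP1 belong mainly to the unfolded protein response of the ER, which shares 1 of the eIF2 kinases, PERK, with the integrated stress response.

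Values are the authors' normalized tag counts, whole numbers in which all libraries have nearly the same distribution: totals lay between 22836548 and 22855295 and the median was 594 in each, so the read depth is unknown. SMARCA4 itself was 1100 and 985 in its knockdown and 7576 to 9296 in the other libraries. KDM1A was 3290 and 1879 in its knockdown against 6344 and 5925 in shLUC, and E2F6 was 336 and 304 against 491 and 553. MAFK was 82 and 216 in shMAFK against 212 and 288 in shLUC, so for its targeted gene the library labelled shMAFK replicate 2 overlapped the controls, and directions drawn from it rest on its label. All 8 listed markers of pluripotent stem cells were in the table and none was at 0 in any library. Of the listed markers of other cell types, 1 of 4 for neuroectoderm, mesoderm, endoderm and trophoblast each and 3 of 5 for fibroblasts were rows of the table.

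The promoters of some of these genes hold the short elements through which the response is known to act, and those sequences are shown here. RefSeq promoter windows (build GRCh38.p14, 250 bases before to 50 bases after a transcription start) were found for 32 of the 39 symbols, with 47 windows in all. The C/EBP-ATF response element was searched as TGATGNAA on both strands. It was present in 11 of the 47 windows (23.4%), against 3.62% of all 35116 windows. These were windows of 11 genes: ATF3, CEBPG, CHAC1, ASNS, HERPUD1 and 6 of the 10 tRNA charging and export genes (AARS, CARS, GARS, MARS, NARS and IARS). The ER stress response element, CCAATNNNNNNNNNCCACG, was present in 2 windows (4.26%), those of HSPA5 and XBP1, against 0.0769% of all windows. The antioxidant response element TGACNNNGC, a core that heterodimers with small MAF proteins are known to bind, was in 23.4% of the members' windows and in 13.3% of all windows. None of the 3 windows of ATF5 held any of the 3 motifs, which says only that these letters are not in those windows. In the sequences below, each read 5′ to 3′ along its gene, capitals mark the matched element, in either orientation. The matched element begins 209 bases before the start in CHAC1, 68 in ASNS, 42 in CEBPG, 187 in AARS, 2 in CARS, 4 in MARS, 176 in HERPUD1, 66 in HSPA5 and 52 in XBP1. For ATF5 a stretch before the last of its 3 starts is shown, which lies outside the overlap with its neighbours described below.
CHAC1 promoter, chr15:40953236-40953295, plus strand: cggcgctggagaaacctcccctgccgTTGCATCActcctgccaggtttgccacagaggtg
ASNS promoter, chr7:97872443-97872502, minus strand: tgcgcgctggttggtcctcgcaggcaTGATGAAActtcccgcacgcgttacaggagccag
CEBPG promoter, chr19:33374045-33374104, plus strand: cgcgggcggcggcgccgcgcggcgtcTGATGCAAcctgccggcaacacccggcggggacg
AARS promoter, chr16:70289660-70289719, minus strand: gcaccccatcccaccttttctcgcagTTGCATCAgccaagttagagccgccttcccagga
CARS promoter, chr11:3057407-3057436, minus strand: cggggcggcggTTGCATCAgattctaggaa
MARS promoter, chr12:57488053-57488082, plus strand: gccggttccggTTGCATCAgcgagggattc
HERPUD1 promoter, chr16:56931940-56931999, plus strand: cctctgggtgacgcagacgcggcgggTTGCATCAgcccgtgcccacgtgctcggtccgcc
HSPA5 promoter, chr9:125241365-125241435, minus strand: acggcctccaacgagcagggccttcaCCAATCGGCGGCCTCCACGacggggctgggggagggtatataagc
XBP1 promoter, chr22:28800577-28800647, minus strand: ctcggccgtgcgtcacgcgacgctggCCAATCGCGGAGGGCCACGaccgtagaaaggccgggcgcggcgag
ATF5 promoter, chr19:49930125-49930244, plus strand: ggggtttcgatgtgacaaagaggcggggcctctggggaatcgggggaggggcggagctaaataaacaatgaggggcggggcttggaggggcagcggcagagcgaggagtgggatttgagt

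The genes formed 1 recurrent pattern over the libraries, with ATF5 as an exception to it. Most were high in both shMAFK libraries, in both shKDM1A libraries and in shLUC replicate 2, and low in shLUC replicate 1 and in both libraries of shE2F6 and of shSMARCA4. The median deviation of the 38 genes from each gene's own median over the 10 libraries, on the log2(value + 1) scale, was 0.78 and 0.55 in shMAFK replicates 1 and 2, and 0.48 and 0.45 in shKDM1A. It was 0.12 in shLUC replicate 2 but -0.39 in shLUC replicate 1. In shE2F6 it was -0.14 and -0.39, and in shSMARCA4 -0.55 and -0.61, while the same median over all rows lay between -0.01 and 0.01 in every library. The number of the 38 genes for which a library was among the 5 highest was 37 and 34 in shMAFK, 35 and 34 in shKDM1A and 32 in shLUC replicate 2, against 2 in shLUC replicate 1, 10 and 4 in shE2F6 and 4 and 1 in shSMARCA4. shMAFK replicate 1 was the highest library for 22 genes, and shSMARCA4 replicate 2 the lowest for 17. In bulk RNA, a response in fewer cells and less RNA per cell cannot be told apart.

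**Figure D1:**
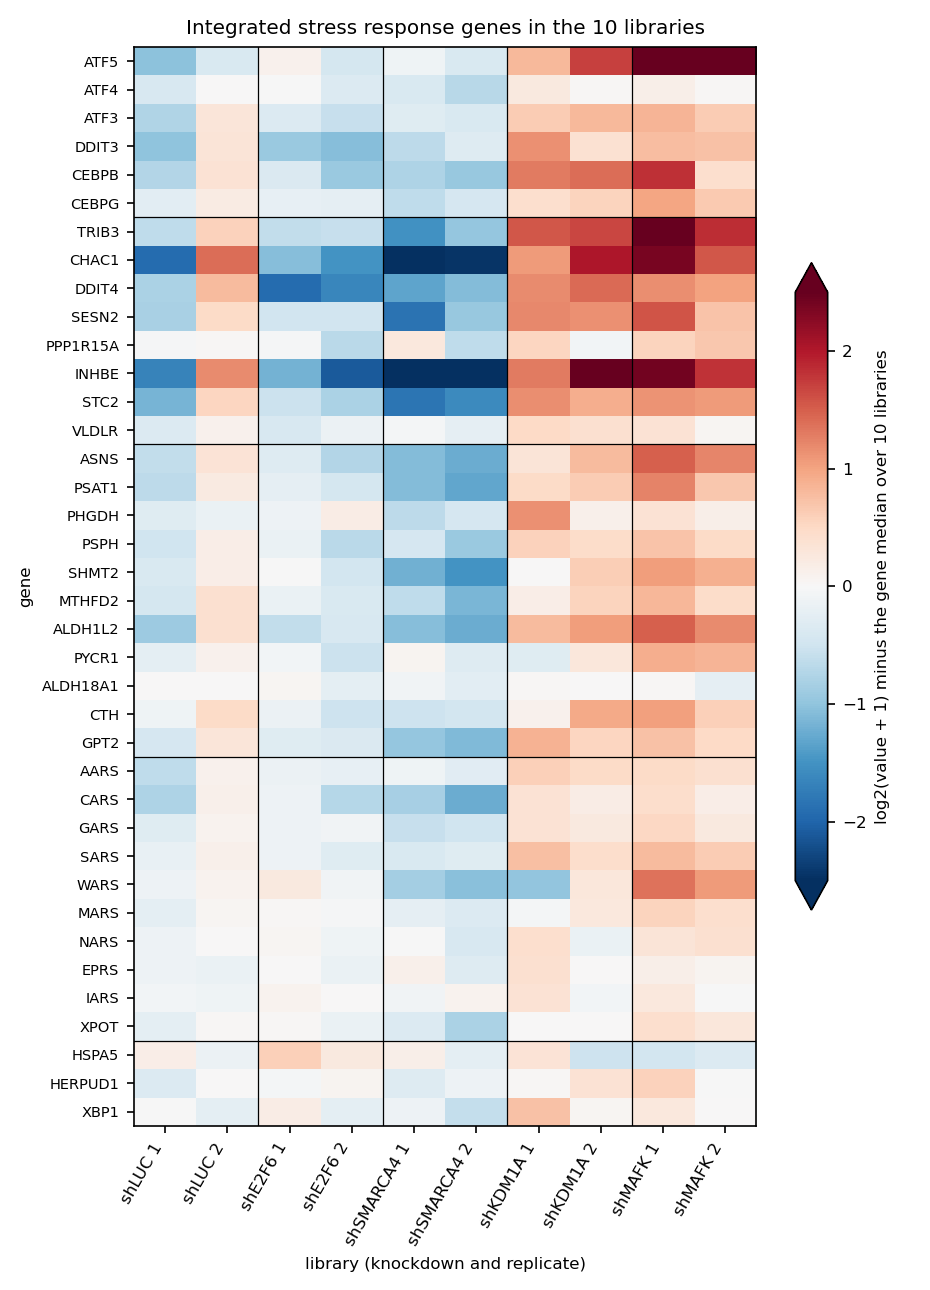
Each row is 1 of the 38 genes and each column 1 library; colour is log2(value + 1) minus the gene's median over the 10 libraries, and horizontal lines separate the 5 roles from transcription factors (top) to ER protein folding (bottom). Most rows are red in shLUC 2, shKDM1A and shMAFK and blue in shLUC 1, shE2F6 and shSMARCA4, while the ATF5 row is dark in shMAFK and blue in both shLUC libraries.

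The control libraries differed in this response by more than the duplicates of any other group. shLUC replicate 2 was higher than replicate 1 for 33 of the 38 genes, against 47.3% of all rows. It was at least 2-fold lower for 0 genes, against 0.352% of all rows, and at least 2-fold higher for 10, against 0.663% of all rows: ATF3, DDIT3, CEBPB, TRIB3, CHAC1, DDIT4, SESN2, INHBE, STC2 and ALDH1L2. The 5 genes that were not higher were ALDH18A1, EPRS, IARS, HSPA5 and XBP1. The median log2 difference was 0.56 over the genes and -0.01 over all rows. The SD between duplicates on the log2 scale was 0.732 over the genes and 0.275 over all rows in shLUC. In the other groups the SD over the genes was 0.278 (shSMARCA4), 0.299 (shMAFK), 0.248 (shE2F6) and 0.386 (shKDM1A). The shKDM1A duplicates were the furthest apart over all rows, with an SD of 0.53 and 10.7% of rows at least 2-fold apart, against 1.01% to 1.93% of rows in the other groups. In the library shKDM1A replicate 1 the pluripotency factor POU5F1 was 148866, against 16615 to 51684 elsewhere. That value lies where the normalized values are far apart, so its size is uncertain. None of the other listed pluripotency markers lay above both shLUC libraries there. DPPA4 was 12828, against 15759 to 27326 elsewhere, and NANOG was 1704, against 2512 and 2639 in shLUC. The 3 fibroblast markers summed to 27610, against 5588 to 15544 elsewhere, through COL1A1 (8374) and COL1A2 (13159). THY1 was 6077 there, against 8852 and 9056 in shLUC. The part of this library's difference in the shKDM1A results below was not tested. With 1 library on each side, the difference between the controls has no replicate and was not tested. Folds below are therefore given against shLUC replicate 1 and against shLUC replicate 2 separately, as the plain mean of the knockdown divided by that control. Log2 changes and medians given without a named control library come from the fit on both, which averages over their difference. All 4 comparisons share these control libraries.

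Among the transcription factors, ATF5 was high in the shMAFK libraries and low in both controls, whereas the others were also high in shLUC replicate 2. ATF5 was 74 and 116 in shLUC, 164 and 112 in shE2F6, 141 and 116 in shSMARCA4, 268 and 501 in shKDM1A, and 1530 and 1454 in shMAFK. The shMAFK values lay above all other libraries, those of shKDM1A came next, and the shLUC, shE2F6 and shSMARCA4 values overlapped. The shMAFK mean was 20.2-fold the value of shLUC replicate 1 and 12.9-fold that of replicate 2, so the change was large against either control. In the fit its log2 change was 3.99 (SE 0.33), given as a description because ATF5 was chosen for it. The shKDM1A mean was 5.20-fold and 3.31-fold the 2 controls, with a log2 change of 1.97 (SE 0.33) that did not pass the threshold (limma, adjusted p = 0.126). The controls themselves differed by 1.57-fold in ATF5, or 0.64 on the log2 scale, beside a median difference of 0.56 over the 38 genes. The value of shLUC replicate 2 (116) lay within the range of the shE2F6 and shSMARCA4 libraries (112 to 164).

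**Figure D2:**
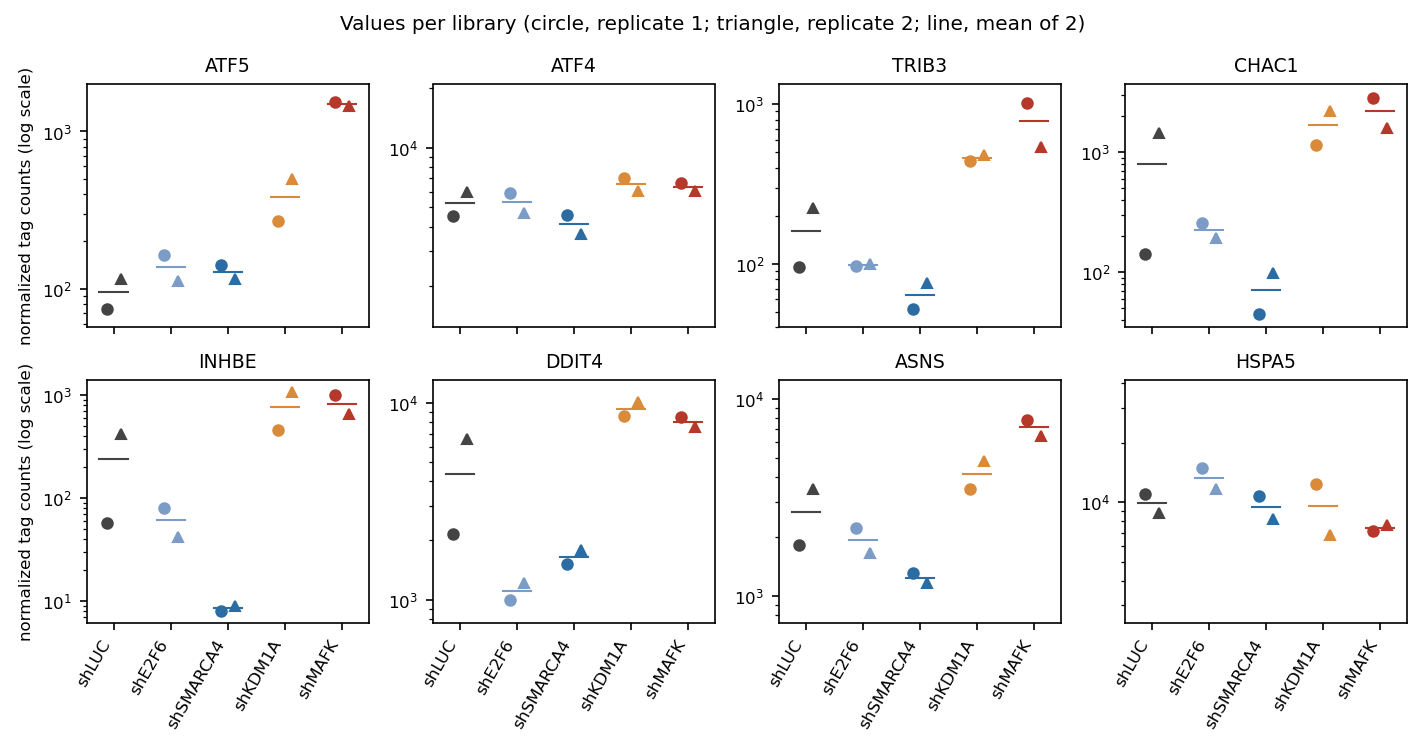
Normalized tag counts of 8 genes in each library (logarithmic vertical axes), with a circle for replicate 1, a triangle for replicate 2 and a line for the mean. ATF5 in shMAFK (1530 and 1454) lies far above its shLUC values (74 and 116), whereas TRIB3, CHAC1, INHBE, DDIT4 and ASNS are also high in shLUC replicate 2, ATF4 ranges from 3673 to 7040, and HSPA5 is highest in shE2F6.

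ATF5 (ENSG00000169136) lies on the plus strand of chromosome 19, at chr19:49928702-49933935 in GENCODE release 29 on GRCh38. Its 5′ end overlaps 2 genes on the minus strand, IL4I1 (chr19:49889654-49929539) and NUP62 (chr19:49906825-49929763). IL4I1, a secreted amino acid oxidase, was 32 and 34 in shLUC and 126 and 106 in shMAFK, which is 1.78 higher on the log2 scale with an SE of 0.31 and an adjusted p of 0.14 in limma. NUP62, a nuclear pore protein, was 2223 and 2265 in shLUC and 2952 and 2664 in shMAFK, which is 0.32 higher on the log2 scale. Whether counting used the strand is not given in the sources used here, so reads of the overlapping genes cannot be told apart. Among other genes of the table within 100 kb, MED25, PTOV1, AKT1S1, TBC1D17, VRK3 and ZNF473 had log2 changes between -0.51 and 0.40 in shMAFK, with an unadjusted p above 0.05 for each.

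ATF4, the central factor of the response, followed the common order of libraries with small differences, and the other factors followed it with larger ones. ATF4 was 4526 and 6012 in shLUC, 5923 and 4704 in shE2F6, 4572 and 3673 in shSMARCA4, 7040 and 6077 in shKDM1A, and 6647 and 6077 in shMAFK. The shKDM1A and shMAFK libraries lay above both controls, the shE2F6 libraries lay within the range of the controls, and ATF4 passed no test (adjusted p = 0.155 for differences among the 4 knockdowns, limma F-test). ATF4 is controlled mainly through translation, which RNA-seq does not measure.

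ATF3, a stress-induced repressor, was 309 and 640 in shLUC, 406 and 348 in shE2F6, 419 and 400 in shSMARCA4, 804 and 907 in shKDM1A, and 938 and 809 in shMAFK. DDIT3, the factor CHOP that links the response to cell death, was 106 and 266 in shLUC, 112 and 102 in shE2F6, 136 and 172 in shSMARCA4, 474 and 278 in shKDM1A, and 366 and 354 in shMAFK. For both genes the shKDM1A and shMAFK libraries lay above both controls, and the shE2F6 and shSMARCA4 libraries lay below shLUC replicate 2. CEBPB, a partner of ATF4 on C/EBP-ATF elements, was 369 and 781 in shLUC, 476 and 318 in shE2F6, 358 and 316 in shSMARCA4, 1501 and 1614 in shKDM1A, and 2156 and 812 in shMAFK. CEBPG, another such partner, was 1237 and 1718 in shLUC, 1290 and 1278 in shE2F6, 960 and 1118 in shSMARCA4, 1983 and 2200 in shKDM1A, and 2934 and 2340 in shMAFK. In shMAFK the mean of CEBPG was 2.13-fold and 1.53-fold the controls (replicate 1, then replicate 2), that of ATF3 2.83-fold and 1.36-fold, and that of CEBPB 4.02-fold and 1.90-fold. None of these 4 passed the threshold in any knockdown against shLUC. Among shSMARCA4, shE2F6 and shKDM1A, without the shMAFK and shLUC means, ATF5, CEBPB and CEBPG differed (adjusted p = 0.0426, 0.0381 and 0.042, limma F-test), while ATF3 (0.0685) and DDIT3 (0.0646) did not pass.

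The feedback, stress and secreted genes spanned the widest ranges. CHAC1, an enzyme that degrades glutathione, was 142 and 1436 in shLUC, 258 and 191 in shE2F6, 45 and 98 in shSMARCA4, 1142 and 2200 in shKDM1A, and 2818 and 1592 in shMAFK. The shMAFK mean was 15.5-fold shLUC replicate 1 and 1.54-fold shLUC replicate 2, since the controls differed by 10.1-fold. INHBE, a subunit of secreted activin E, was 57 and 419 in shLUC, 80 and 42 in shE2F6, 8 and 9 in shSMARCA4, 454 and 1068 in shKDM1A, and 985 and 645 in shMAFK. Both shSMARCA4 values lay below all other libraries, at 0.149-fold and 0.0203-fold the controls. INHBE fell in shSMARCA4 by 4.04 on the log2 scale (SE 0.79; limma, adjusted p = 0.025).

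TRIB3, a pseudokinase that restrains ATF4 and CHOP, was 96 and 224 in shLUC, 97 and 100 in shE2F6, 52 and 76 in shSMARCA4, 443 and 480 in shKDM1A, and 1022 and 540 in shMAFK. Its shMAFK mean was 8.14-fold and 3.49-fold the controls and its shKDM1A mean 4.81-fold and 2.06-fold, so TRIB3, like ATF5, was at least 2-fold above both controls in both knockdowns. DDIT4, an inhibitor of the growth kinase mTORC1, was 2170 and 6580 in shLUC, 990 and 1220 in shE2F6, 1510 and 1793 in shSMARCA4, 8630 and 10074 in shKDM1A, and 8497 and 7578 in shMAFK. Here the shE2F6 libraries were the lowest, at 0.509-fold and 0.168-fold the controls, and did not overlap them. SESN2, another brake on mTORC1, was 597 and 1446 in shLUC, 753 and 746 in shE2F6, 291 and 543 in shSMARCA4, 2404 and 2295 in shKDM1A, and 3110 and 1708 in shMAFK. STC2, a secreted glycoprotein, was 728 and 2346 in shLUC, 1118 and 930 in shE2F6, 454 and 540 in shSMARCA4, 3622 and 3025 in shKDM1A, and 3528 and 3366 in shMAFK. For SESN2 and STC2 both shSMARCA4 libraries lay below both controls and the shKDM1A and shMAFK libraries above them. PPP1R15A, the phosphatase subunit that reverses eIF2 phosphorylation, stayed between 112 and 288 in all libraries and its controls were alike (176 and 183). VLDLR, a lipoprotein receptor, ranged from 1491 to 2758.

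The enzymes followed the same order with smaller differences. ASNS, which makes asparagine, was 1809 and 3506 in shLUC, 2208 and 1662 in shE2F6, 1306 and 1168 in shSMARCA4, 3474 and 4808 in shKDM1A, and 7784 and 6490 in shMAFK. Its shMAFK libraries lay above all others, at 3.95-fold and 2.04-fold the controls, and its shSMARCA4 libraries below all others. PSAT1, an enzyme of serine synthesis, was 4486 and 8220 in shLUC, 6012 and 5172 in shE2F6, 3329 and 2842 in shSMARCA4, 9772 and 10950 in shKDM1A, and 16615 and 11277 in shMAFK. The highest value lies where the normalized values are far apart, so its size is uncertain. PSPH, the last enzyme of serine synthesis, was 843 and 1340 in shLUC, 1052 and 743 in shE2F6, 887 and 626 in shSMARCA4, 1760 and 1639 in shKDM1A, and 1958 and 1650 in shMAFK. In both PSAT1 and PSPH the shKDM1A and shMAFK libraries were above both controls.

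Of the enzymes, SHMT2 was the 1 that passed the test in shSMARCA4. SHMT2, which passes a carbon unit from serine to folate in mitochondria, was 3564 and 5172 in shLUC, 4612 and 3366 in shE2F6, 2022 and 1636 in shSMARCA4, 4646 and 7097 in shKDM1A, and 9502 and 8628 in shMAFK. SHMT2 fell in shSMARCA4 by 1.24 on the log2 scale (SE 0.26; limma, adjusted p = 0.0351), to 0.513-fold and 0.354-fold the controls. MTHFD2, the next enzyme of that pathway, was 4261 and 7680 in shLUC, 5172 and 4452 in shE2F6, 3738 and 2628 in shSMARCA4, 6492 and 8496 in shKDM1A, and 10349 and 7917 in shMAFK. ALDH1L2, a mitochondrial folate enzyme, was 142 and 354 in shLUC, 174 and 203 in shE2F6, 127 and 113 in shSMARCA4, 466 and 553 in shKDM1A, and 762 and 608 in shMAFK. GPT2, a mitochondrial alanine transaminase, was 1898 and 3128 in shLUC, 2039 and 1971 in shE2F6, 1290 and 1181 in shSMARCA4, 4612 and 3651 in shKDM1A, and 4196 and 3564 in shMAFK. SHMT2, MTHFD2, ALDH1L2 and GPT2 were lower in both shSMARCA4 libraries than in both controls (GPT2, adjusted p = 0.0561). Of the enzymes that passed no test, PYCR1, which makes proline, was 8376 and 8088 in shMAFK and between 3094 and 5421 elsewhere. PHGDH, the first enzyme of serine synthesis, was 21308 in shKDM1A replicate 1 and between 6143 and 12340 elsewhere. That highest PHGDH value also lies where the normalized values are far apart, so its size is uncertain. CTH, which makes cysteine, ranged from 419 to 1222. ALDH18A1, an early enzyme of proline synthesis, ranged only from 3168 to 3901.

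Of the tRNA charging and export genes, 6 hold the C/EBP-ATF element shown above. With both controls their median log2 change was 0.53 in shMAFK, 0.29 in shKDM1A and -0.25 in shSMARCA4, against 0.76, 0.68 and -0.87 for the enzymes. In shKDM1A it was 0.33 against shLUC replicate 1 and 0.19 against replicate 2, beside 0.94 and 0.22 for the enzymes. The gap between the lists there was thus small against replicate 2. In shMAFK the values were 0.70 and 0.33, beside 1.09 and 0.42. In shSMARCA4 they were -0.13 and -0.39, beside -0.39 and -1.29. GARS, which charges glycine tRNA, was 3190 and 4166 in shLUC, 3604 and 3674 in shE2F6, 2639 and 2758 in shSMARCA4, 5028 and 4646 in shKDM1A, and 5628 and 4613 in shMAFK. SARS, for serine, was 2483 and 3046 in shLUC, 2586 and 2265 in shE2F6, 2162 and 2265 in shSMARCA4, 4704 and 3798 in shKDM1A, and 4852 and 4340 in shMAFK. WARS, for tryptophan, was 2061 and 2394 in shLUC, 2664 and 2098 in shE2F6, 1244 and 1087 in shSMARCA4, 1126 and 2740 in shKDM1A, and 5708 and 4704 in shMAFK. GARS and SARS were higher in shKDM1A and shMAFK than in both controls, whereas the WARS values of shKDM1A lay on either side of the controls. WARS was at least 2-fold above both controls in shMAFK (2.53-fold and 2.17-fold). Of the other 7, AARS (alanine) went from 4092 in shLUC replicate 1 to 9502 in shKDM1A replicate 1 and CARS (cysteine) from 834 in shSMARCA4 replicate 2 to 2690 in shMAFK replicate 1. MARS (methionine) and XPOT, which exports tRNA from the nucleus, were highest in the shMAFK libraries, at 6578 and 6012 and at 10950 and 10071. NARS, EPRS and IARS, for asparagine, for glutamate and proline, and for isoleucine, had log2 changes between -0.16 and 0.41 in all 4 knockdowns.

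Of the ER protein folding genes, HSPA5 ran against the common pattern. HSPA5, the ER chaperone BiP, was 10950 and 8852 in shLUC, 14834 and 11635 in shE2F6, 10757 and 8220 in shSMARCA4, 12340 and 6828 in shKDM1A, and 7097 and 7680 in shMAFK. Its shMAFK libraries were the only ones of the 38 genes in this knockdown to lie below both controls, against 25.3% of all rows. For HSPA5 shLUC replicate 2 was lower than replicate 1. XBP1, the factor spliced by IRE1, was 2178 and 1854 in shLUC, and lay above both controls in shKDM1A (3622 and 2257) and in shMAFK (2628 and 2200). HERPUD1, a component of ER-associated degradation, was 321 and 411 in shLUC, 414 and 526 in shKDM1A, and 606 and 402 in shMAFK. None of the 3 passed any test, and the difference between this list and the others was not tested.

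Read against each control library in turn, the same knockdown gave different counts of genes at least 2-fold apart, counted on the mean of the log2 values of its 2 libraries. In shMAFK, 22 of the 38 genes were at least 2-fold above shLUC replicate 1, against 1.81% of all rows, and 4 were at least 2-fold above replicate 2, against 0.9% of all rows. Those 4 were ATF5, TRIB3, ASNS and WARS. In shKDM1A, 17 genes were at least 2-fold above replicate 1 (2.19% of all rows) and 2, ATF5 and TRIB3, above replicate 2 (1.52% of all rows). In shSMARCA4 the order was the opposite: CHAC1 and INHBE, 2 genes, were at least 2-fold below replicate 1 (3.55% of all rows), and 15 were below replicate 2 (3.8% of all rows). In shE2F6, 0 genes were 2-fold below replicate 1 (0.703% of all rows) and 7 were below replicate 2 (1.06% of all rows), namely DDIT3, CEBPB, TRIB3, CHAC1, DDIT4, INHBE and STC2. In the other direction the count was 0 against either control in each knockdown. The shares of all rows (replicate 1, then 2) were 1.35% and 1.06% lower in shMAFK, 2.18% and 1.77% lower in shKDM1A, 0.582% and 0.737% higher in shE2F6, and 2.41% and 2.4% higher in shSMARCA4. By the ratio of plain means used for the folds above, 3 genes fell on the other side of 2-fold: CHAC1 in shSMARCA4 (0.504-fold replicate 1), CEBPB in shE2F6 (0.508-fold replicate 2) and PHGDH in shKDM1A (2.05-fold replicate 1). The median log2 change over the genes was 1.08 against shLUC replicate 1 and 0.43 against replicate 2 in shMAFK, and 0.79 and 0.31 in shKDM1A. It was -0.23 and -0.69 in shSMARCA4, whereas in shE2F6 it turned from 0.13 to -0.40. The signs of the shMAFK, shKDM1A and shSMARCA4 medians over the 38 genes therefore held with either control, and that of shE2F6 did not. By role, the shSMARCA4 median of the transcription factors was 0.14 against replicate 1 and -0.69 against replicate 2. Those of the other roles in shSMARCA4 were below 0 with either control.

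**Figure D3:**
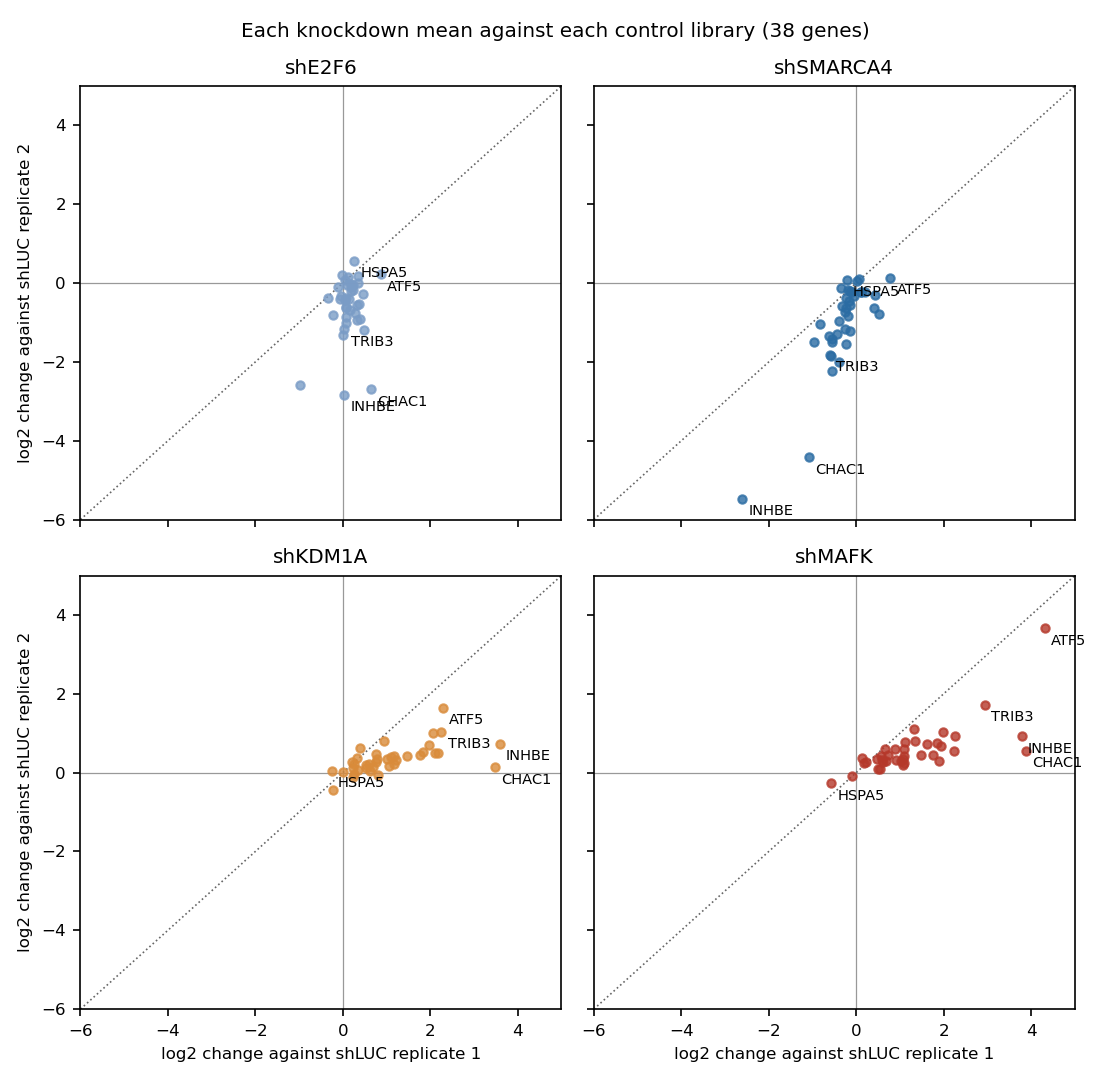
Log2 change of each knockdown mean against shLUC replicate 1 (horizontal) and against shLUC replicate 2 (vertical) for the 38 genes; on the dotted line both controls give the same change. Points lie mostly below the line because shLUC replicate 2 was higher. ATF5 in shMAFK is the point with the largest increase against both, while INHBE in shSMARCA4 has the largest decrease against replicate 2 (-5.47).

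With both controls in the fit, few genes passed the threshold in single comparisons. In shSMARCA4, INHBE and SHMT2 were called lower, 2 of 38 genes, against 2.51% of all rows, and 0 were called higher, against 1.67% of all rows, in limma at an adjusted p under 0.05 (4.18% of all rows in either direction). At an unadjusted p under 0.05, 17 genes were lower (8.53% of all rows) and 0 higher (7.78% of all rows). Both shSMARCA4 libraries lay below both controls for 22 genes (25.4% of all rows) and above them for 0 (25.6% of all rows). In shMAFK limma called 1 of the 38 genes and 0.0135% of all rows. That gene was ATF5 (adjusted p = 0.00928), given as a description because ATF5 was chosen for this change. Its adjusted p was 0.165 without shLUC replicate 1, 0.0634 without shMAFK replicate 1 and 0.22 without shMAFK replicate 2, and 3 genes (ATF5, ALDH1L2 and STC2) were called without shLUC replicate 2, when 0.0676% of all rows were. At an unadjusted p 24 genes were higher (4.27% of all rows) and 0 lower (4.49% of all rows), and 34 lay above both controls in both libraries (23.8% of all rows), which is read only as a description since shMAFK was in view when the genes were chosen. In shKDM1A limma called 0 genes (0.0271% of all rows), with 20 higher (5.85% of all rows) and 0 lower (5.61% of all rows) at an unadjusted p under 0.05, and 24 above both controls (17.9% of all rows). Without shKDM1A replicate 2 it called 8, but also 21.9% of all rows, a share near that of the members, and without shLUC replicate 2 it called 2 (0.0541% of all rows). In shE2F6 limma called 0 genes (0% of all rows). At an unadjusted p the 1 gene there was DDIT4, lower by 1.78 on the log2 scale (2.54% of all rows were lower and 2.55% higher at that p). Both shE2F6 libraries lay above both controls for 3 genes (20.3% of all rows) and below them for 3, DDIT4, PPP1R15A and CTH (20.4% of all rows).

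The shSMARCA4 calls depended on single libraries and stood beside changes in other markers. Their number ran from 0, without shLUC replicate 2, without either shMAFK library or without either shSMARCA4 library, to 6 without shLUC replicate 1 (0.859% of all rows), and was 4 without shKDM1A replicate 1 or 2 (GPT2, INHBE, SHMT2 and WARS; 7.79% and 7.84% of all rows). MIXL1, the 1 mesoderm marker in the table, was 1809 and 132 in shSMARCA4 and 9 to 34 elsewhere, and FOXA2, for endoderm, was 792 and 170 against 0 to 4 elsewhere. KRT7, for trophoblast, was 30 and 44 in shSMARCA4 and 125 to 360 elsewhere. The 3 fibroblast markers summed to 5588 and 6737 against 13531 to 27610 elsewhere. Of these, COL1A1 and THY1 were lower than in all other libraries, while COL1A2 (2483 and 2794) overlapped the controls (2740 and 3262). The neuroectoderm marker was within the range of the other libraries. Of the pluripotency markers, SOX2 (4426 and 4748), LIN28A (30774 in both) and TDGF1 (9056 and 7313) were below all other libraries. LIN28A was 41812 or 51691 elsewhere, where the normalized values are far apart, so the size of its difference is uncertain. NANOG (4613 and 3699) was above them all, and POU5F1, DNMT3B, DPPA4 and SALL4 overlapped the other libraries. The part of these changes in the lower stress response values was not tested.

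To leave the shLUC and shMAFK means out, the means of shSMARCA4, shE2F6 and shKDM1A were compared with each other. The shLUC and shMAFK libraries still entered the shared estimate of the spread, so the differences between their duplicates were not set aside. Of the 38 genes, 15 differed among these 3 knockdowns (limma moderated F-test, adjusted p under 0.05 over all rows), against 5.58% of all rows. With only the libraries of these 3 knockdowns in the fit, 12 of the 38 passed, and the share of all rows was not counted there. In all 15 both shKDM1A libraries lay above all 4 shE2F6 and shSMARCA4 libraries. In 14 of them the shSMARCA4 mean was the lowest, and DDIT4 was lowest in shE2F6. The smallest adjusted p-values were 0.00683 (DDIT4), 0.00723 (INHBE), 0.00944 (GPT2) and 0.00959 (TRIB3), and ATF5 had the largest at 0.0426. By role, 3 of 6 transcription factors, 6 of 8 feedback, stress and secreted genes, 5 of 11 enzymes, 1 of 10 tRNA genes (SARS) and 0 of 3 ER genes passed. Among all 4 knockdowns, which brings in the shMAFK means and is therefore a description, 21 genes passed, against 6.64% of all rows, and in 16 of these the shMAFK mean was the highest. That count was 6 without shSMARCA4 replicate 1 or 2 (1.88% and 1.91% of all rows), 13 without shE2F6 replicate 1 or 2 (3.57% and 3.38%), and 12 and 13 without shMAFK replicates 1 and 2 (3.38% and 2.72%). The count of 15, for the 3 knockdowns, was 1 without shSMARCA4 replicate 1 (1.58% of all rows), 3 without replicate 2 (1.72%), and 7 without shE2F6 replicate 1 or 2 (2.85% and 2.79%), with DDIT4 the gene common to all 4. It was 1 (SHMT2; 3.91% of all rows) when each group kept its own spread through group weights, so the count rests on 1 spread shared by all groups. At an unadjusted p under 0.05, 28 of the 38 genes differed, against 22.8% of all rows.

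Further genes of the pathway were then counted in the same fit. Of 93 further genes listed, 89 were in the table: 25 other ATF4 targets and amino acid transporters, 24 ER unfolded protein response genes, 19 genes of eIF2 and its kinases, exchange factor and phosphatases, 11 other cytosolic tRNA synthetases, and 10 mitochondrial chaperones and proteases. Of these 89, 1 was called in shSMARCA4 (SLC1A5) and 0 in each of the other knockdowns. At an unadjusted p under 0.05, limma gave 14 higher and 1 lower in shMAFK (15.7% and 1.12% of the 89, against 4.27% and 4.49% of all rows). It gave 13 and 8 in shKDM1A (14.6% and 8.99%, against 5.85% and 5.61%), and 4 and 9 in shSMARCA4 (4.49% and 10.1%, against 7.78% and 8.53%). In shE2F6 it gave 2 and 1 (2.25% and 1.12%, against 2.55% and 2.54%). The single call was lost without any 1 of the shE2F6, shMAFK or shSMARCA4 libraries or shLUC replicate 2. Without both shKDM1A libraries 7 of the 89 were called in shSMARCA4. All rows were then called at 7.86%, a share near that of the 89 genes. In shKDM1A there were 32 calls without its replicate 2, when 21.9% of all rows were called. Without shLUC replicate 2 there was 1 in shKDM1A (0.0541% of all rows) and 2 in shMAFK (0.0676%). In the F-test among shSMARCA4, shE2F6 and shKDM1A 6 passed (6.74% of the 89, against 5.58% of all rows), and among all 4 knockdowns 8 (8.99%, against 6.64%).

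Of the 8 genes that passed among all 4 knockdowns, 4 were amino acid transporters. SLC7A11, the cystine importer, was 418 and 1728 in shLUC, 989 and 820 in shE2F6, 592 and 459 in shSMARCA4, 2156 and 3128 in shKDM1A, and 3367 and 2832 in shMAFK. SLC1A5, a glutamine transporter, was 6746 and 7784 in shLUC, 6077 and 6143 in shE2F6, 4612 and 4958 in shSMARCA4, 12340 and 11277 in shKDM1A, and 11635 and 10950 in shMAFK. Its controls were close to each other, its shSMARCA4 and shE2F6 libraries lay below them and its shKDM1A and shMAFK libraries above. SLC1A5 fell in shSMARCA4 by 0.60 on the log2 scale (SE 0.14; limma, adjusted p = 0.044) and differed among the 3 knockdowns (adjusted p = 0.00283). JDP2, a repressor related to ATF3, was 50 and 318 in shLUC, 148 and 72 in shE2F6, 50 and 38 in shSMARCA4, 810 and 494 in shKDM1A, and 660 and 492 in shMAFK. SLC3A2 and SLC7A5, the chains of a transporter of large neutral amino acids, had log2 changes of 1.02 and 1.06 in shKDM1A, 0.57 and 1.27 in shMAFK and -0.77 and -0.59 in shSMARCA4. BBC3, a pro-apoptotic gene, was 695 and 985 in shMAFK and 254 to 548 elsewhere. SLC7A11 and BBC3 passed only the F-test among all 4 knockdowns. Over the 25 genes, shLUC replicate 2 was above replicate 1 for 20, against 47.3% of all rows. The shMAFK libraries lay above both controls for 21, against 23.8% of all rows. Both counts are descriptions, since the lists were chosen with earlier results known. The promoter windows of 8 of the 23 genes of this list that had one held the C/EBP-ATF element.

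SDF2L1 and DERL3, ER genes, passed in the opposite direction. SDF2L1, an ER chaperone cofactor, was 372 and 234 in shLUC, 394 and 497 in shE2F6, 406 and 288 in shSMARCA4, 136 and 124 in shKDM1A, and 148 and 112 in shMAFK. DERL3, a channel component of ER-associated degradation, was 125 and 62 in shLUC, 198 and 152 in shE2F6, 248 and 142 in shSMARCA4, 24 and 52 in shKDM1A, and 64 and 68 in shMAFK. SDF2L1 was lower in the shKDM1A and shMAFK libraries than in any other, and both genes differed among the 3 knockdowns (adjusted p = 0.0137 and 0.0265, limma F-test). The median log2 change of the 24 ER genes was -0.09 in shMAFK, -0.04 in shKDM1A and 0.05 in shSMARCA4. Against shLUC replicate 1 and then replicate 2 it was -0.11 and -0.03 in shMAFK and -0.06 and -0.08 in shKDM1A. In shSMARCA4 it was -0.04 and 0.09.

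No gene of the other branches passed a test. The 11 other synthetases had medians of -0.02 in shMAFK and 0.02 in shKDM1A. Against shLUC replicate 1 and then replicate 2 these were -0.07 and 0.10 in shMAFK and -0.18 and 0.14 in shKDM1A. For 3 of the synthetases shLUC replicate 2 was above replicate 1, against 47.3% of all rows. The promoter windows of 1 of the 7 synthetases with a window, TARS, held the C/EBP-ATF element. The largest changes were those of FARSB (-0.97 in shKDM1A) and RARS (-0.58 in shKDM1A), which charge phenylalanine and arginine tRNAs. For eIF2 and its regulators they were EIF2AK3, the ER kinase PERK (-0.89 in shSMARCA4), and IMPACT, an inhibitor of the kinase GCN2 (-0.77 in shSMARCA4). For the mitochondrial proteases they were CLPP (-1.19 in shKDM1A) and AFG3L2 (0.69 in shKDM1A). CLPP was 140 and 639 and AFG3L2 5706 and 2231 in shKDM1A, so in both the change came from replicate 1 of that knockdown.

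**Figure D4:**
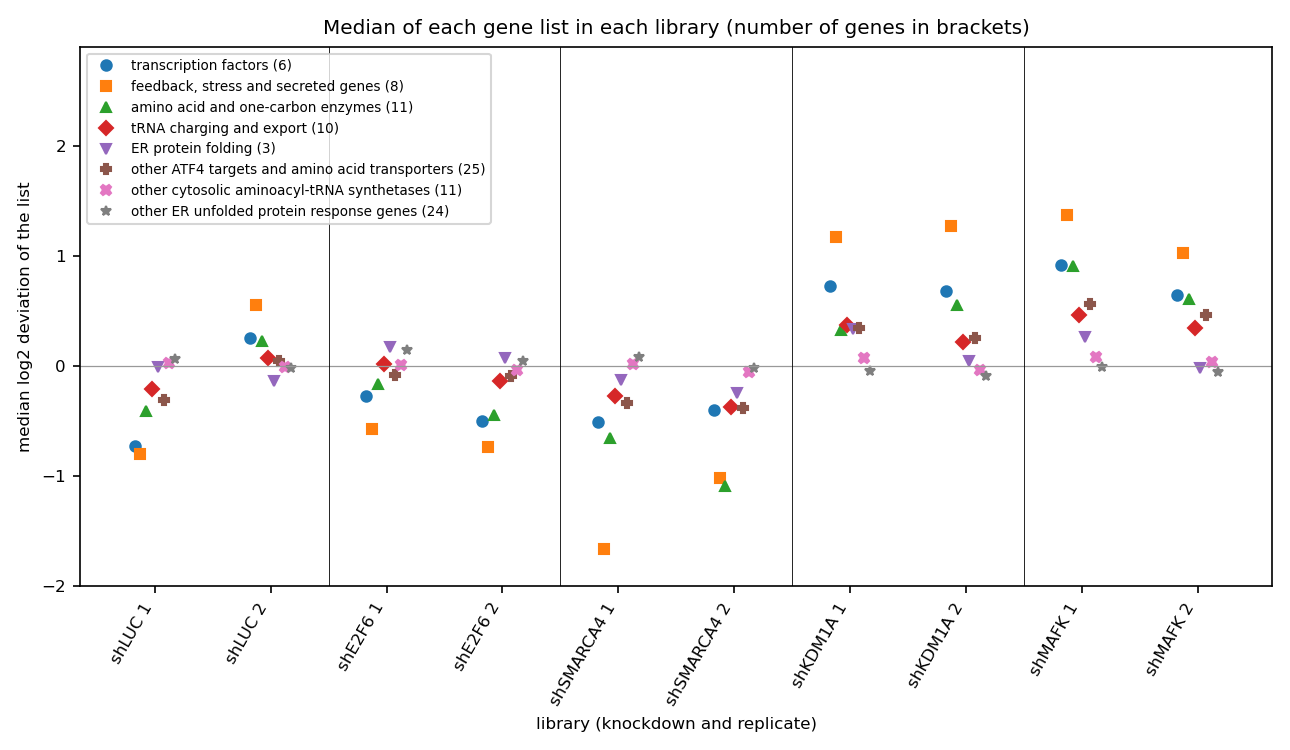
Median over each gene list of log2(value + 1) minus the gene's median over the 10 libraries, for each library. The feedback, stress and secreted genes (orange squares) span the widest range, while the other synthetases (pink crosses) and other ER genes (grey stars) stay near 0 in every library.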

How the data were processed

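RNA was measured by RNA-seq in 10 H1 libraries, 2 for each of 5 shRNA groups taken from the sample titles. Per the labels' protocols, virus was collected after 36 h, puromycin followed 2 days later, and RNA with an integrity number of at least 8 went into NEB Next Ultra libraries for an Illumina NovaSeq. STAR, STARsolo and hg38 are named in the submitters' processing notes; counter, annotation, strand and normalization are not given in the sources used here. The deposited values are treated as scores, the authors' normalized whole numbers and not raw counts: 80.3% of ranks hold the same value in all libraries. Depth is therefore unknown and no counting interval is given. The highest values lie on widely spaced steps. Columns not mapped to a sample numbered 0.

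All 38 identifiers and symbols were in GENCODE release 29. Values were analysed as log2(value + 1), a scale that makes changes of low values look smaller. A minimum mean of 10 removed no row. All 10 libraries entered 1 limma 3.58.1 fit (R 4.3.3, mean-variance trend, 5 residual degrees of freedom, two-sided). P-values were adjusted by Benjamini-Hochberg over 14785 rows, with a threshold of 0.05. The script was tested on simulated data. Folds against a single control library have no test. Per-library values are given for ATF5, ATF4 and each gene past a threshold or with means at least 2-fold apart; of other pathway lists, genes past a threshold or the 2 largest changes. The members and lists were chosen with earlier results of these data known. Alternatives covered pseudocount, filter, scaling, variance model, libraries fitted, replicate block and each library left out. Replicate numbers were not taken as pairs. Tables and plots used Python 3.11.15, pandas 2.3.3 and matplotlib 3.10.9.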

Additional observations from a re-analysis of the deposited data

How the results depend on the processing

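Of the counts of called genes, that for shE2F6 stayed at 0 in all alternatives, and the others rested on the variance model and on single libraries. Members called in shSMARCA4 (2 in the report) numbered 1 with a pseudocount of 16 (4.27% of all rows) and 4 with group weights (8.83%). Without both shKDM1A libraries they numbered 4 (7.86% of all rows). Other pathway genes called there (1) numbered 0 without the variance trend (4.1% of all rows) and 7 with group weights (8.83%). They numbered 7 without both shKDM1A libraries (7.86% of all rows) and 5 with only the knockdown and shLUC libraries. Members called in shMAFK (1) numbered 11 with group weights (3.29% of all rows) and 2 without both shKDM1A libraries (0.23%). With only shMAFK and shLUC they numbered 2. Other pathway genes called in shMAFK (0) numbered 8, 0 and 2 in the same settings. The share of all rows was not counted with only a knockdown and shLUC. All of these counts also changed when single libraries were left out. In shKDM1A (0 and 0), leaving out 1 library gave 0 to 8 members and 0 to 32 other genes, with both highest counts without shKDM1A replicate 2, when 21.9% of all rows were called. The F-test counts of members ran from 6 to 31 (21, all 4 knockdowns) and from 1 to 21 (15, 3 knockdowns) with 1 library left out, and the second was 1 with group weights; both highest counts came without shKDM1A replicate 2, when 35.9% and 33% of all rows passed. The ATF5 change in shMAFK stayed between 3.67 and 4.31, with an adjusted p of 0.165 without shLUC replicate 1, 0.0634 without shMAFK replicate 1 and 0.22 without shMAFK replicate 2. Where a group is left with 1 library, that library is assumed to vary like the other groups. The median of shE2F6 (-0.17) was 0.13 with shLUC replicate 1 alone and ran from -0.40 to 0.13 with 1 library left out. Across groups, same-numbered libraries deviated with correlations from -0.05 to 0.337, above 0.1 in 2 of 10 pairs of groups. With the replicate number as a block, members called were 2 in shSMARCA4 (4.35% of all rows) and 1 in shMAFK (0.00676%). They were 0 in shE2F6 (0% of all rows) and 0 in shKDM1A (0.0203%). The F-tests of 4 and of 3 knockdowns then gave 18 and 13 members (6.59% and 5.77% of all rows). ATF5 in shMAFK had an adjusted p of 0.0419 in limma. Depth, and with it the counting error of low values such as INHBE in shSMARCA4, is unknown.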
